A study of Mus musculus with 8 samples.

Results

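The citrate cycle and the breakdown of the branched-chain amino acids (leucine, isoleucine and valine) were followed gene by gene after silencing of Erk3 in adipocytes. The set held 32 genes chosen by symbol from the count table, 15 of the citrate cycle and 17 of branched-chain amino acid breakdown, out of 18088 genes in all. All 32 were in the table and all 32 passed the filter on low counts that left 17972 genes to be tested. The rule lists genes by name and uses no measured value.

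The cells were 3T3-L1 cells, a mouse fibroblast line that can be differentiated into fat cells, here wildtype in genotype and used as differentiated adipocytes. They were transfected in suspension with siRNA targeting Erk3 (siErk3, 4 libraries) or with a nontargeting siRNA (siNTC, 4 libraries), at 1.25 nM of siRNA per square centimeter, and were used after 48 h. The question was which transcripts depend on the kinase ERK3, encoded by Mapk6. The labels do not say whether the replicates were separate cultures, so each p-value reflects the spread among these libraries alone, which may be technical. One silencing condition was compared with one control, so an action of the siRNA on other transcripts and the loss of Erk3 cannot be told apart.

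The citrate cycle oxidises acetyl-CoA in mitochondria. Citrate synthase joins acetyl-CoA to oxaloacetate, a series of dehydrogenases passes electrons to the respiratory chain, and malate dehydrogenase restores oxaloacetate. In adipocytes citrate also leaves the mitochondria as the carbon source for fatty acid synthesis. Branched-chain amino acids are taken apart in mitochondria by a transaminase and a large dehydrogenase complex that the kinase BCKDK switches off and the phosphatase PPM1K switches on. Separate routes for each amino acid then end in acetyl-CoA or in succinyl-CoA, an intermediate of the citrate cycle, and adipocytes are known to raise these enzymes as they differentiate.

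Library totals lay between 9854522 and 9943572 counts, and the members held between 218 and 6485 counts in a library. Levels are given as CPM, counts scaled to a common library size with TMM factors. Mapk6 lay between 558 and 599 CPM in the siNTC libraries and between 63.5 and 74.8 CPM in the siErk3 libraries. The 8 adipocyte markers summed to between 28647 and 30897 CPM in siNTC and to between 16191 and 17286 CPM in siErk3, and 8 of 8 were called lower, which moves with every decrease described here. Of the preadipocyte markers 4 of 5 were called lower, while the other, Ly6a, went from a mean of 3.47 to 307 CPM. All 17 interferon-stimulated genes listed were called higher, and their summed level went from between 159 and 174 to between 5840 and 6063 CPM. Of 8 macrophage markers only Cd68 and Csf1r were in the table, with a sum of at most 9.97 CPM in any library, and of 7 endothelial markers only Pecam1, at no more than 1.58 CPM. In bulk RNA, fewer cells of a type and less RNA per cell cannot be told apart, and the part of these markers in the results below was not tested.

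Transcripts of both pathways were lower after silencing of Erk3. In edgeR's quasi-likelihood test with Benjamini-Hochberg adjustment over all genes (called at an adjusted p under 0.05), 13 of the 15 citrate cycle genes were called lower and 0 higher. Of the 17 branched-chain amino acid genes 16 were called lower and 1, Ppm1k, was called higher. Over all genes tested 23.8% were called lower and 24.9% higher. Abundant genes are called more often, and among the 7229 genes with a mean at or above that of the least abundant member (27.4 CPM), 29.8% were called lower and 32.5% higher. The median log2 fold change (siErk3 over siNTC) was -0.35 for the citrate cycle genes and -0.44 for the branched-chain amino acid genes, beside 0.00 for all genes tested.

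**Figure D1:**
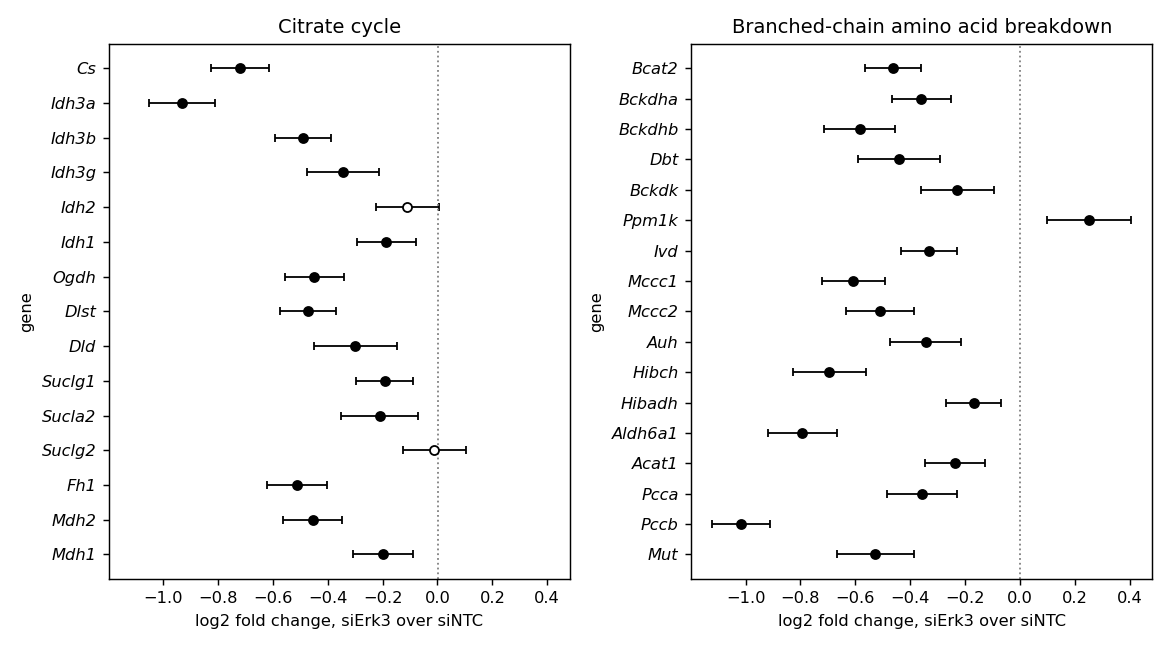
Log2 fold change of each member, siErk3 over siNTC, on the x axis, with genes in pathway order on the y axis. Points are estimates of the edgeR fit, bars are 95% intervals, filled points were called, open points were not, and the dotted line is the median of all genes tested. Every citrate cycle point lies to the left of the line, the open ones being Idh2 and Suclg2, and Ppm1k is the one gene to its right.

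For a view of the regulatory sequence, promoter windows were taken from RefSeq (GRCm38.p6) for 28 of the 32 members, and Idh3a, Dbt, Mut and Acat1 had no entry. The 250 bases before the transcript start are shown for the most decreased member with a window in each pathway, Cs and Pccb, and for the member that was called higher, Ppm1k. Sequences run 5′ to 3′ on the strand of the gene, and capitals mark the letters CCAAT or their reverse complement in Cs and Ppm1k and the letters GCGCATGC, the core bound by NRF1, in Pccb.
Cs, chr10:128337477-128337726, plus strand: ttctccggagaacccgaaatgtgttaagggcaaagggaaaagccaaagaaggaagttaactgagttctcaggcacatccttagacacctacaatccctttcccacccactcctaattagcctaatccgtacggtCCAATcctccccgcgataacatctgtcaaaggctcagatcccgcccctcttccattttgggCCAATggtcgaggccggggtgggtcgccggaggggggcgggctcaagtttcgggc
Pccb, chr9:101034885-101035134, minus strand: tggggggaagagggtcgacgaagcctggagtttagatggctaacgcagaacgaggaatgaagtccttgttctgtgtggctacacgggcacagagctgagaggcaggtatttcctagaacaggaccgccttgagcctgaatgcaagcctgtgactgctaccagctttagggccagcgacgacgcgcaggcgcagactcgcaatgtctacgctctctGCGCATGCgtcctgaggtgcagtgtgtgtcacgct
Ppm1k, chr6:57535488-57535737, minus strand: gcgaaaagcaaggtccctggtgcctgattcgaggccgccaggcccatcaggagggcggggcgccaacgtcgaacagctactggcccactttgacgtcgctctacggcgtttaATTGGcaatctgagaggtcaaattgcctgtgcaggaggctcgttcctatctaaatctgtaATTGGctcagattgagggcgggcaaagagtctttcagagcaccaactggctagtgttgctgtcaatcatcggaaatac

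Both Cs and Ppm1k, which were called in opposite directions, hold CCAAT at 2 places in these 250 bases, and Pccb holds none. In windows that also take in the 50 bases after the start, and on either strand, CCAAT was found in 9 of 14 citrate cycle genes and in 9 of 14 branched-chain amino acid genes, beside 43.1% of all tested genes with a window. GCGCATGC was found in Ogdh and Pccb, 1 gene of each pathway, beside 5.86% of tested genes. The letters GTAAACA, which FOXO factors bind, were found in Auh and Hibadh, beside 3.16%. TCAAGGTCA, an element of the estrogen-related receptors, was in none of the 28, beside 0.296%, and the shorter AAGGTCA that it contains was in Ogdh alone, beside 4.02%. These searches were chosen after the expression values, and for CCAAT after the sequences, had been seen, and a match describes letters only.

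Summed over its 15 genes, the citrate cycle held 4008, 3842, 3993 and 4158 CPM in siNTC replicates 1 to 4 and 2956, 3053, 3059 and 3074 CPM in siErk3 replicates 1 to 4. The groups did not overlap, and the mean sum fell by 24.1%. Taken gene by gene, all siErk3 libraries lay below all siNTC libraries for 11 of the 15, beside 20.7% of all genes tested, and in no citrate cycle gene did all siErk3 libraries lie above all siNTC libraries, beside 22.5%. All 15 estimates were negative, so that the count of genes higher at an unadjusted p under 0.05 was also 0, and DESeq2 and limma-voom called 0 higher.

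Citrate synthase, Cs (ENSMUSG00000005683, chr10:128337734-128362479, plus strand), makes the first commitment of acetyl-CoA to the cycle. Its level was 631, 602, 656 and 647 CPM in siNTC replicates 1 to 4 and 366, 396, 397 and 381 CPM in siErk3 replicates 1 to 4. Every siErk3 library was far below every siNTC library, with a log2 fold change of -0.72 (SE 0.05) and an adjusted p of 3.76e-11. Csl, a related gene that shares 115 stretches of 50 bases with Cs, had a log2 fold change of -0.66, and reads in those stretches cannot be assigned with certainty to either gene.

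The NAD-dependent isocitrate dehydrogenase, whose catalytic subunit is Idh3a and whose other subunits are Idh3b and Idh3g, was called lower in all 3 subunits. Idh3a (ENSMUSG00000032279, chr9:54586334-54604661, plus strand) was the most decreased gene of the cycle. It lay at 261, 257, 239 and 282 CPM in siNTC replicates 1 to 4 and at 126, 142, 139 and 138 CPM in siErk3 replicates 1 to 4. The groups were far apart, with a log2 fold change of -0.93 (SE 0.06, adjusted p = 2.80e-12), and the mean fell by 47.6%. Idh3b lay at 304, 287, 303 and 319 CPM in siNTC and at 215, 219, 219 and 212 CPM in siErk3, again without overlap, with a log2 fold change of -0.49 (SE 0.05, adjusted p = 1.87e-08). Idh3g, the least abundant of the 3 per kb of annotated exon, went from a mean of 88.4 ± 8.19 to 69.6 ± 2.78 CPM (SD, n = 4 libraries each), a log2 fold change of -0.35.

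The NADP-dependent isocitrate dehydrogenases, Idh1 in the cytosol and Idh2 in mitochondria, supply NADPH. Idh1 went from 442 ± 26.0 to 389 ± 7.57 CPM (SD, n = 4 each), with a log2 fold change of -0.19 (SE 0.05, adjusted p = 0.00452). Idh2 averaged 109 ± 5.90 CPM in the control and 101 ± 4.40 CPM after silencing. Its groups overlapped and it was not called (adjusted p = 0.104), with a 95% interval of the log2 fold change from -0.22 to 0.00. The interval still allows a decrease of Idh2 as large as the estimate for Idh1.

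The oxoglutarate dehydrogenase complex is built from Ogdh, Dlst and Dld, and Dld also serves the pyruvate and branched-chain complexes. Ogdh lay at 199, 201, 220 and 201 CPM in siNTC replicates 1 to 4 and at 143, 152, 155 and 151 CPM in siErk3. All siErk3 libraries were below the lowest siNTC library, with a log2 fold change of -0.45 (SE 0.05, adjusted p = 1.56e-07). The estimate for Dlst was near that of Ogdh, with a change from 247 ± 8.33 to 178 ± 3.66 CPM and a log2 fold change of -0.47. Dld was more variable, at 234, 242, 180 and 230 CPM in siNTC and 175, 176, 170 and 199 CPM in siErk3. Here siNTC replicate 3 lay within the range of siErk3, and the call (log2 fold change -0.30, SE 0.07, adjusted p = 0.00166) rests on groups that overlap. Without that library the log2 fold change of Dld was -0.39, and no call of any of the 32 members changed.

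Succinyl-CoA ligase pairs the shared subunit Suclg1 with Sucla2, the subunit specific for ADP, or with Suclg2, the subunit specific for GDP. Suclg1 went from 201 ± 8.0 to 176 ± 2.45 CPM (log2 fold change -0.19). Sucla2 went from 85.7 ± 7.75 to 74.1 ± 5.93 CPM with overlapping groups and a log2 fold change of -0.21 (SE 0.07, adjusted p = 0.0135). Leaving out siNTC replicate 4 ended this call (adjusted p = 0.0523), as did leaving out siErk3 replicate 2 (adjusted p = 0.0783). Suclg2 had the smallest difference of all 32 genes, with means of 58.8 ± 2.25 CPM in the control and 58.3 ± 1.75 CPM after silencing and a 95% interval of the log2 fold change from -0.13 to 0.10. A processed pseudogene, Gm15163, shares 724 stretches of 50 bases with Suclg2 and was called lower (log2 fold change -0.20), and the reads of both cannot be told apart in those stretches.

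The last steps run from fumarate through malate to oxaloacetate. Fh1, fumarate hydratase, lay at 128, 127, 130 and 139 CPM in siNTC and at 89.9, 96.6, 89.0 and 92.0 CPM in siErk3. The groups did not overlap and the log2 fold change was -0.51 (SE 0.05, adjusted p = 2.58e-08). Mdh2, the mitochondrial malate dehydrogenase, went from 368 ± 19.2 to 268 ± 9.33 CPM, a log2 fold change of -0.46. Mdh1, the cytosolic enzyme and the most abundant member of the cycle, lay at 634, 599, 666 and 682 CPM in siNTC and at 540, 562, 566 and 584 CPM in siErk3. These groups came close without overlapping, with a log2 fold change of -0.20 (SE 0.05, adjusted p = 0.00345).

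Added up by step, the 3 NAD-dependent isocitrate dehydrogenase genes fell by 35.3% in mean summed CPM, the oxoglutarate dehydrogenase complex fell by 24.6% and the genes from fumarate to oxaloacetate fell by 19.4%. Such sums are weighted towards genes with many counts. From fumarate to oxaloacetate Mdh1, at 645 of 1145 CPM in siNTC, fell by 12.8%, Fh1 by 29.9% and Mdh2 by 27.1%. The sum decreased by 11.2% for the NADP-dependent isocitrate dehydrogenases and decreased by 10.8% for succinyl-CoA ligase, each of which holds 1 gene that was not called. The cytosolic Idh1 and Mdh1 and the ligase gene Suclg1 were among the smallest changes. With library sizes in place of TMM scaling, Idh1, Mdh1, Suclg1 and Sucla2 were no longer called (adjusted p = 0.104, 0.0704, 0.0731 and 0.147), and with upper-quartile factors Idh2 was called lower (log2 fold change -0.18, adjusted p = 0.00968).

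**Figure D2:**
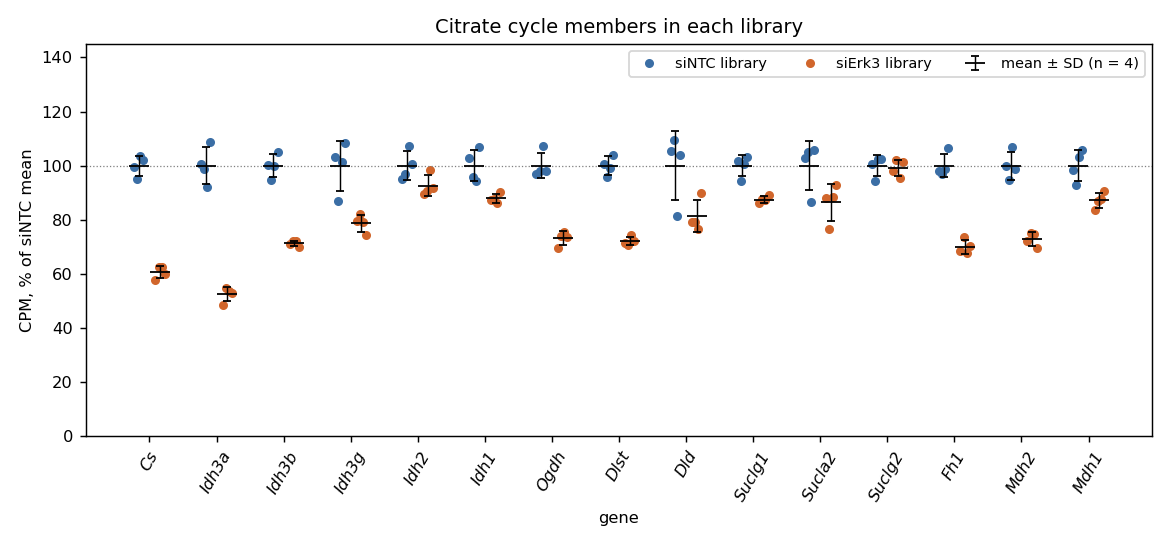
CPM of each citrate cycle gene in each library as a percent of its siNTC mean (y axis), with genes in the order of the cycle (x axis). Points are libraries, blue for siNTC and orange for siErk3, and black marks give the mean ± SD of 4 libraries. Idh3a and Cs show the widest gap between groups, while the groups overlap for Idh2, Dld, Sucla2 and Suclg2.

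For branched-chain amino acid breakdown, the 17 genes summed to 3098, 3059, 2957 and 3202 CPM in siNTC replicates 1 to 4 and to 2225, 2226, 2240 and 2249 CPM in siErk3 replicates 1 to 4. The siErk3 libraries were close to each other and below all siNTC libraries, and the mean sum fell by 27.4%. All siErk3 libraries lay below all siNTC libraries for 16 of the 17 genes, beside 20.7% of all genes tested, and above them for 1, Ppm1k, beside 22.5%.

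The first steps are shared by the 3 amino acids. Bcat2, the mitochondrial transaminase that removes their amino group, lay at 264, 255, 269 and 275 CPM in siNTC and at 192, 192, 202 and 187 CPM in siErk3. The groups were well apart, with a log2 fold change of -0.46 (SE 0.05, adjusted p = 5.05e-08). The branched-chain keto acid dehydrogenase, which commits the carbon skeletons to oxidation, is made of Bckdha and Bckdhb, the subunits of its decarboxylase, and Dbt, the core transacylase. Bckdha lay at 223, 218, 231 and 228 CPM in siNTC and at 185, 166, 182 and 169 CPM in siErk3, without overlap and with a log2 fold change of -0.36 (SE 0.05, adjusted p = 3.98e-06). Bckdhb went from 130 ± 10.5 to 86.5 ± 5.40 CPM (log2 fold change -0.58), and Dbt from 103 ± 9.19 to 75.8 ± 8.31 CPM (log2 fold change -0.44).

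The enzymes that set the activity of this complex were called in opposite directions. Bckdk, the inactivating kinase, lay at 57.6, 62.5, 67.6 and 63.2 CPM in siNTC and at 55.7, 57.0, 53.3 and 48.4 CPM in siErk3. The lowest siNTC library lay just above the highest siErk3 library, with a log2 fold change of -0.23 (SE 0.06, adjusted p = 0.00483). Ppm1k (ENSMUSG00000037826, chr6:57506502-57535468, minus strand), the activating phosphatase, lay at 25.8, 26.5, 22.8 and 24.9 CPM in siNTC and at 29.4, 28.7, 28.7 and 32.5 CPM in siErk3. All siErk3 libraries were above all siNTC libraries, with a log2 fold change of 0.25 (SE 0.07, adjusted p = 0.00666). With library sizes in place of TMM scaling Bckdk was no longer called (adjusted p = 0.0738), while Ppm1k kept its call in all 16 alternatives, with an adjusted p of at most 0.0432. Ppm1k is the least abundant of the 32 genes, at 218 to 329 counts in a library, and its transcripts share stretches of 50 bases with transcripts of other genes. Synrg and Zmynd8 share the most, 106 each, and were not called (log2 fold change -0.08 and -0.03). Ankfy1 shares 92 and was called higher (1.35). Of the others some were called higher, some were not called, and Gas2l3 was called lower (-0.57). A part of shared reads in the change of Ppm1k was not tested.

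In the leucine branch, Ivd (isovaleryl-CoA dehydrogenase) went from 357 ± 12.9 to 284 ± 4.88 CPM, a log2 fold change of -0.33. Methylcrotonyl-CoA carboxylase, a biotin enzyme, is made of Mccc1, which carries biotin, and Mccc2. Mccc1 lay at 139, 135, 127 and 142 CPM in siNTC and at 90.4, 83.4, 92.7 and 89.9 CPM in siErk3, with no overlap and a log2 fold change of -0.61 (SE 0.05, adjusted p = 2.79e-09). Mccc2 went from 75.4 ± 5.06 to 53.0 ± 2.50 CPM (log2 fold change -0.51), and Auh, the hydratase of the next step, from 48.6 ± 3.06 to 38.3 ± 1.5 CPM (log2 fold change -0.34). All 4 leucine genes were called lower.

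In the valine branch, Hibch, which releases hydroxyisobutyrate from its CoA ester, lay at 81.7, 85.2, 71.6 and 86.2 CPM in siNTC and at 47.2, 53.5, 49.1 and 50.8 CPM in siErk3. The groups were far apart, with a log2 fold change of -0.69 (SE 0.06, adjusted p = 3.82e-09). Hibadh, which oxidises hydroxyisobutyrate, went from 415 ± 16.3 to 370 ± 2.36 CPM, a log2 fold change of -0.17 that was no longer called with library sizes in place of TMM scaling (adjusted p = 0.159). Aldh6a1 (ENSMUSG00000021238, chr12:84430717-84451004, minus strand), which turns methylmalonate semialdehyde into propionyl-CoA, had the highest CPM of the branched-chain genes, with no allowance for length. It lay at 665, 666, 554 and 682 CPM in siNTC replicates 1 to 4 and at 361, 374, 360 and 386 CPM in siErk3. Even siNTC replicate 3, which stood well below the other siNTC libraries, was above every siErk3 library, and the log2 fold change was -0.79 (SE 0.06, adjusted p = 1.38e-10).

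Aldh6a1 shares 1078 of its 5784 exonic bases with Bbof1, which lies on the opposite strand. The library kit does not mark strand, so reads in the shared bases cannot be told apart. Bbof1 was given 97.6% as many counts as Aldh6a1 (97.5% to 98.3% over the libraries), and its log2 fold change was also -0.79. The values of both genes may therefore not be separate measurements. Bckdha shares 1171 exonic bases with B3gnt8 (72.0% as many counts, log2 fold change -0.41), and Bcat2 and Mccc1 each share over 300 bases with a gene that held under 2% as many counts. Mccc1 also shares 94 bases with Gm15952, which held 89.8% as many counts and had a log2 fold change of -0.57. Pcca, described next, shares 241 bases with Ggact on the opposite strand, which held 52.5% as many counts and had a log2 fold change of -0.22. An alternative chosen after seeing the data left out Aldh6a1, Bckdha, Bcat2 and Mccc1, the 4 genes that share at least 300 bases. Of the remaining 13 branched-chain amino acid genes 12 were called lower, beside 23.8% of all genes tested.

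Valine and isoleucine both pass through propionyl-CoA, which propionyl-CoA carboxylase (Pcca and Pccb) and methylmalonyl-CoA mutase (Mut) carry to succinyl-CoA. Pccb (ENSMUSG00000032527, chr9:100982032-101034898, minus strand) was the most decreased of the 32 genes. It lay at 114, 113, 110 and 111 CPM in siNTC and at 55.2, 54.9, 56.6 and 55.0 CPM in siErk3. Both groups were narrow, the mean fell by 50.5%, and the log2 fold change was -1.02 (SE 0.05, adjusted p = 6.42e-14). Its partner Pcca went from 60.2 ± 2.80 to 47.0 ± 3.41 CPM (log2 fold change -0.36), and Mut from 163 ± 17.9 to 113 ± 6.84 CPM (log2 fold change -0.53). Acat1, the thiolase that ends the isoleucine route and also acts on ketone bodies, went from 178 ± 10.1 to 151 ± 3.87 CPM (log2 fold change -0.24).

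By branch, the mean summed CPM fell by 35.7% for the propionyl-CoA genes, fell by 30.6% for the valine genes, fell by 26.6% for the shared first steps and fell by 24.8% for the leucine genes. Of the 1138 CPM of the valine genes in siNTC, 642 were given to Aldh6a1, with the limit from Bbof1 stated above. Bckdk and Ppm1k together held 87.8 ± 3.03 CPM in the control and 83.4 ± 2.30 CPM after silencing, since the one gene was lower and the other higher.

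**Figure D3:**
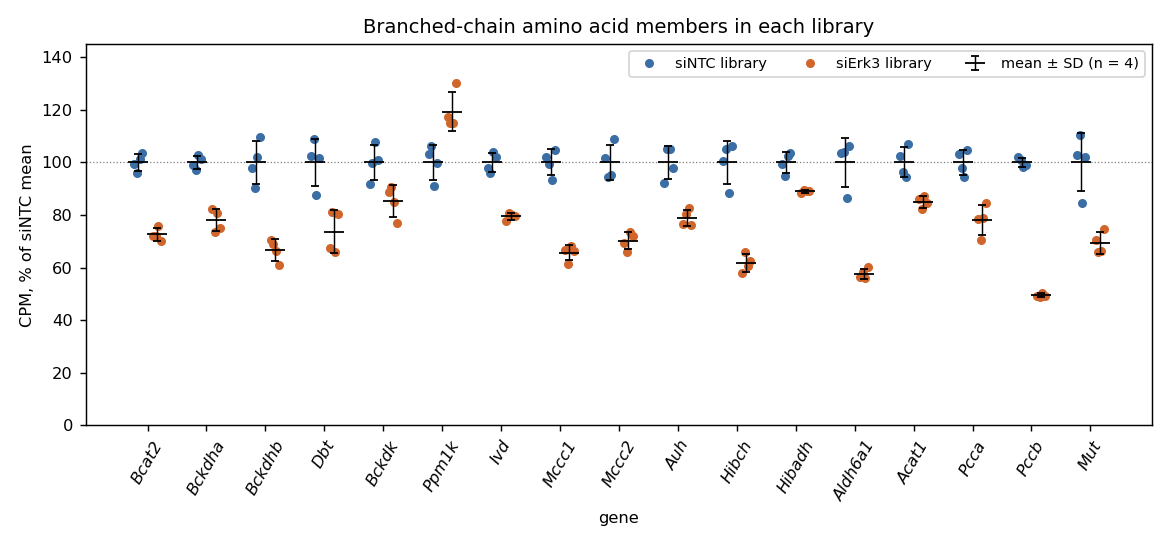
CPM of each branched-chain amino acid gene in each library as a percent of its siNTC mean (y axis), with genes in pathway order (x axis). Points are libraries, blue for siNTC and orange for siErk3, and black marks give the mean ± SD of 4 libraries. Pccb sits near the 50% level in all siErk3 libraries, Ppm1k is the one gene above 100%, and no gene has overlapping groups.

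Subunits and enzyme partners were also compared with each other. For 11 pairs the ratio of counts was taken within each library, which does not depend on the scaling between libraries, and the groups were compared with an exact two-sided permutation test. For 4 against 4 libraries the smallest p is 0.0286, and 6 pairs whose groups did not overlap reached it. With Benjamini-Hochberg adjustment over the 11 pairs their adjusted p was 0.0524, so that 0 pairs passed the threshold and 6 did at an unadjusted p under 0.05.

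The widest difference was in Pcca over Pccb, whose log2 ratio was -0.88, -0.94, -0.95 and -0.81 in siNTC replicates 1 to 4 and -0.22, -0.37, -0.25 and -0.11 in siErk3. Thus Pcca counts were 0.538 of those of Pccb in siNTC and 0.847 in siErk3 (geometric means), a difference of 0.66 on the log2 scale (exact permutation p = 0.0286, adjusted p = 0.0524). Reads in the bases that Pcca shares with Ggact cannot be told apart. The ratio of Bckdk to Ppm1k was 2.50 in siNTC and 1.79 in siErk3, a log2 difference of -0.48. Idh3a over Idh3b went from 0.855 to 0.629, a log2 difference of -0.44, whereas Idh3g over Idh3b went from 0.291 to 0.322, a difference of 0.15. Mdh1 over Mdh2 went from 1.75 to 2.10 (log2 difference 0.26), and Mccc1 over Mccc2 from 1.80 to 1.68 (log2 difference -0.10).

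The groups overlapped in the other 5 pairs. Their log2 differences were 0.22 for Bckdha over Bckdhb (exact permutation p = 0.0571), -0.20 for Sucla2 over Suclg2 (p = 0.114), 0.14 for Dbt over Bckdhb (p = 0.400), -0.08 for Idh1 over Idh2 (p = 0.371) and 0.02 for Ogdh over Dlst (p = 0.629). Ogdh and Dlst, subunits of the same complex, had the smallest difference of the 11.

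**Figure D4:**
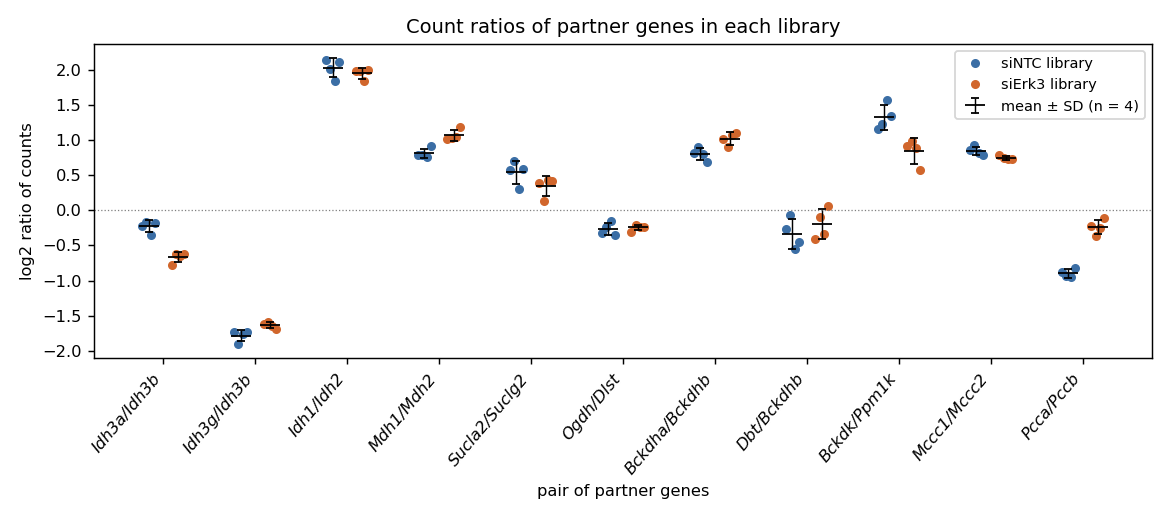
Log2 ratio of the counts of 2 partner genes (y axis) for each of 11 pairs (x axis). Points are libraries, blue for siNTC and orange for siErk3, and black marks give the mean ± SD of 4 libraries. Pcca/Pccb, Bckdk/Ppm1k and Idh3a/Idh3b show the widest gaps, while the points of Ogdh/Dlst and Idh1/Idh2 overlap.

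Levels can be compared between genes only per length, here as CPM per kb of exon. The length counts all annotated exons of a gene, merged over its transcripts, and not the transcripts present in these cells. It ran from 1805 bases for Bckdhb to 10952 bases for Mccc1, so the order of genes also depends on the annotation. In siNTC the cycle ran from Mdh1 at 251 CPM per kb over Idh1 at 160, Cs at 110, Mdh2 at 103 and Idh3b at 88.7 CPM per kb to Sucla2 at 21.5 and Suclg2 at 12.7 CPM per kb. In 5 of the 14 pairs of neighbours in this order the siNTC ranges overlapped, among them Cs and Mdh2. In siErk3 Mdh2 (75.4 CPM per kb) stood above Cs (66.6 CPM per kb), and Idh3a went from rank 7 to rank 11 of 15. There Idh3a (26.8 CPM per kb) lay close to Ogdh (27.5), Fh1 (27.1) and Idh3g (25.8). Overlap of neighbours was counted in siNTC only, so the order of these genes in siErk3 was not tested.

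Among the branched-chain genes Bckdha stood first in siNTC at 119 CPM per kb, followed by Aldh6a1 at 111 CPM per kb, and their ranges overlapped, as did those of 9 of the 16 pairs of neighbours in all. Both levels include reads in bases shared with B3gnt8 and Bbof1, which cannot be told apart. At the other end were Auh at 5.08 and Ppm1k at 4.15 CPM per kb. In siErk3 Ppm1k (4.95 CPM per kb) stood above Auh (4.00 CPM per kb). The level of Bckdk, 17 CPM per kb in siNTC and 14.5 in siErk3, exceeded that of Ppm1k in both groups.

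**Figure D5:**
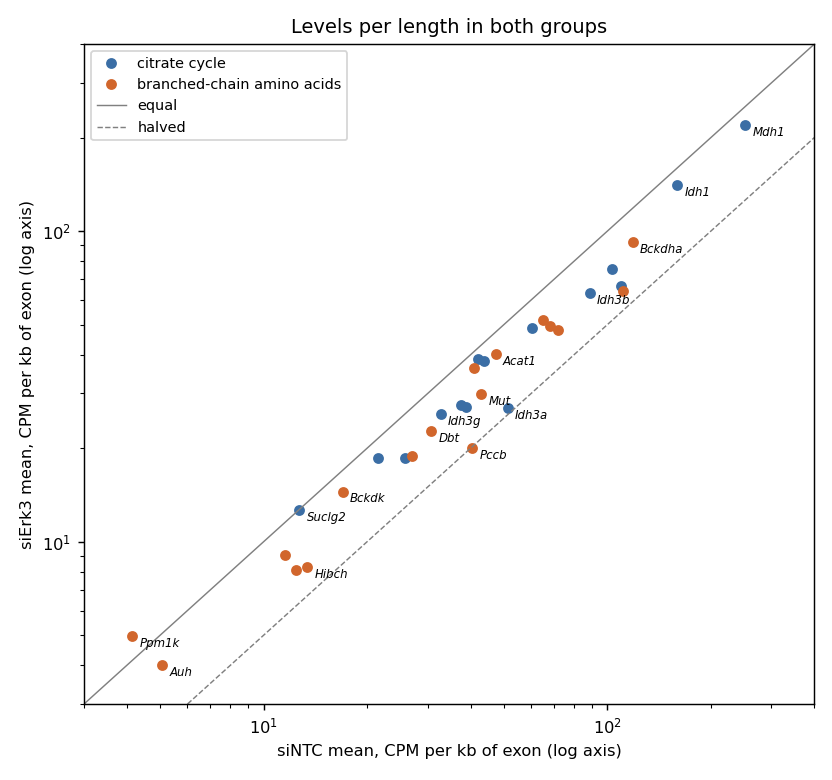
Mean level of each member per length in siNTC (x axis) and siErk3 (y axis), in CPM per kb of exon on log axes, blue for the citrate cycle and orange for branched-chain amino acid breakdown, with some genes labelled. The solid line marks equal levels and the dashed line a level cut to 50%, and the points run from Ppm1k above the solid line to Pccb on the dashed line.

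The remaining genes of the cycle, listed apart from the 15, moved the same way in most cases: of 10 tested, 7 were called lower and 1 higher. Beside the counts of this and the following lists, 23.8% of all genes tested were called lower and 24.9% higher. Aco1, the cytosolic aconitase, had a log2 fold change of -0.83, and Sdhd, an anchor of succinate dehydrogenase, one of -0.43. The assembly factor Sdhaf2 was the gene called higher (0.26). Nnt, the transhydrogenase (-0.11), and the assembly factor Sdhaf4 (-0.13) were not called. Their median log2 fold change was -0.26.

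Of 14 genes that bring pyruvate into the cycle or control its entry, among them inactivating kinases, 10 were called lower and 2 higher, with a median of -0.30. The kinase Pdk1, which inactivates pyruvate dehydrogenase, went from 240 ± 20.6 to 107 ± 3.20 CPM (log2 fold change -1.16), Mpc2, a subunit of the mitochondrial pyruvate carrier, changed by -0.46 and Pdha1, a subunit of pyruvate dehydrogenase, by -0.43. Pdp1, a phosphatase of the complex (0.45), and Pdk4 (0.36), another kinase, were called higher. Pdhx (-0.12) and Pdk2 (-0.09) were not called.

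Of 13 genes around the exit of citrate and the refilling of the cycle 7 were called lower and 4 higher, with a median of -0.21, where 23.8% and 24.9% of all genes tested were called lower and higher. Gpt2, mitochondrial alanine transaminase, went from 129 ± 8.17 to 51.9 ± 0.62 CPM (log2 fold change -1.31). Slc25a11, the oxoglutarate carrier (-0.53), and Acly, which splits citrate in the cytosol (-0.41), were also called lower. The aspartate transaminases Got2 (0.61) and Got1 (0.40) were called higher. The citrate carrier Slc25a1 averaged 428 ± 33.1 CPM in the control and 429 ± 8.64 CPM after silencing and was not called, nor was Me3 (0.67), which lay near 1 CPM.

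Of 23 further genes of branched-chain amino acid breakdown and transport 14 were called lower and 3 higher, with a median of -0.24. Hadhb, the thiolase subunit of the trifunctional protein, went from 132 ± 7.47 to 39.1 ± 2.95 CPM (log2 fold change -1.75). Acadm, an acyl-CoA dehydrogenase, changed by -0.79 and Abat, a transaminase at a mean of only 2.97 CPM in siNTC, by -0.83. The 3 genes called higher were Slc3a2 (0.51) and Slc7a5 (0.20), which together carry large neutral amino acids across the plasma membrane, and Slc25a44 (0.15), the mitochondrial carrier of branched-chain amino acids. Other amino acid transporters of the list, named after their values were seen, were Slc43a1, called lower (-0.26), and Slc7a8 (0.28), which was not called. Mmadhc (0.13), a gene of cobalamin handling, was not called.

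Of 12 regulators known to act on these genes or on mitochondria 8 were called lower and the other 4 were not called. Klf15, a factor known to act on branched-chain amino acid genes, went from 94.1 ± 2.99 to 48.8 ± 2.54 CPM (log2 fold change -0.95), Ppargc1b, a coactivator, changed by -0.82 and Cebpa, an adipocyte factor, by -0.54. Gabpa (-0.06) and Tfam (0.08) were not called. The next 3 were chosen for mention after their values were seen, because their binding letters were searched above. Esrra (-0.41), Nrf1 (-0.22) and Foxo1 (-0.19) were called lower. Whether any of these regulators acts on the members in these cells was not tested. Over the 5 lists 46 of 72 genes were called lower and 10 higher, beside 23.8% and 24.9% of all genes tested. The median of their log2 fold changes was -0.25.

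The scaling moves all members together. The median log2 fold change of the citrate cycle genes lay at -0.42 with upper-quartile factors and at -0.26 with library sizes only, and that of the branched-chain amino acid genes at -0.51 and -0.36. The share of called genes that were higher was 51.1% with TMM scaling, 39.7% with upper-quartile factors and 65.1% with library sizes only. No call of a member reversed its direction in any of the 16 alternatives.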

How the data were processed

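Poly(A) RNA was sequenced with a kit that does not mark strand. The authors deposited raw read counts per gene, and per the labels their processing used bcl2fastq, FastQC, Bowtie2, edgeR and build mm10, whereas the counting program, annotation and strand setting are not given in the sources used here. Their comparison table (log2 fold change, mean log2 CPM, p-value, adjusted p-value) was not used. The fit was made with edgeR 4.0.16 (R 4.3.3), using filterByExpr (minimum count 10, minimum total 15), TMM factors and the quasi-likelihood test (siNTC as reference, no covariate), with Benjamini-Hochberg adjustment over 17972 genes and calls at an adjusted p under 0.05. CPM are counts scaled to library size and TMM factor. Alternatives used DESeq2 1.42.0, limma 3.58.1 (voom), other factors and filters, a replicate block, and the removal of each library. Ratios used a pseudocount of 0.5 and scipy 1.17.1. Gene positions, exon lengths and overlaps came from GENCODE M21, of the same build as mm10, which matched 18050 of the 18088 IDs. The fit was tested on simulated data.

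The members and lists were chosen with earlier results of these data known. All members are named, with per-library values for the 4 called genes of each pathway with the largest change, the most abundant one and Cs, Idh3a, Ogdh, Bcat2, Bckdha, Bckdk and Ppm1k. From each further list at most 3 called genes per direction by size of change and at most 2 uncalled ones by abundance are named. Some genes that this rule names are not reported here. Dld was added after its values were seen. Intervals cover the spread between these libraries.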

Additional observations from a re-analysis of the deposited data

Results flagged for a closer look

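Among 86 groups of 4 libraries (the level of each member and each partner ratio, in each group), 7 had a library whose gap to its nearest neighbor relative to the range exceeded Dixon's 95% critical value, beside 4.3 that chance gives at about 1 in 20. In siNTC replicate 3, Ogdh was high at 220 CPM (others 199 to 201), Sucla2 was low at 74.2 CPM (others 88.0 to 90.7) and Aldh6a1 was low at 554 CPM (others 665 to 682). The other 4 were log2 ratios: Idh3g over Idh3b at -1.90 in siNTC replicate 2, Idh1 over Idh2 at 1.83 in siErk3 replicate 3, Mdh1 over Mdh2 at 1.19 in siErk3 replicate 4, and Sucla2 over Suclg2 at 0.13 in siErk3 replicate 2. In siNTC replicate 3, 13 of the 32 members had their lowest siNTC value, beside 15 in replicate 2, 4 in replicate 1 and 0 in replicate 4.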

How the results depend on the processing

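Of 512 values for members under the 16 alternatives, 503 kept their side of the threshold, 8 lost a call and 1 gained one. For 25 of the 32 members no call changed. Among these Suclg2, which was never called, did not keep its direction. Its log2 fold change was -0.01 in the main fit, 0.08 with library sizes only and 0.01 without siErk3 replicate 3. With library sizes only, 9 citrate cycle and 14 branched-chain amino acid genes were called lower, beside 3139 of all 17972 genes tested. Leaving out each library in turn gave 12 to 13 citrate cycle genes and 16 branched-chain amino acid genes called lower. Over all genes tested in these fits, 3839 to 4131 were called lower. For the pairs 0 passed, where 3 against 4 libraries cannot give an exact permutation p below 0.0571. Replicate numbers are shared by the groups, but deviations of same-numbered libraries correlated at 0.0616, 0.0634, 0.228 and -0.0217, so the numbers were not taken to pair the samples. With a replicate block 13 citrate cycle and 16 branched-chain amino acid genes were called lower and 1 higher (4292 lower and 4501 higher over all genes), and in the paired test of ratios, whose smallest p is 0.125, 0 pairs passed.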
